A study of Homo sapiens with 9 samples.

Results

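The 9 genes described here mark germinal centre B cells and Burkitt lymphoma: MME, CD38, CR2, CD24, MS4A1, VPREB3, TCL1A, TCL1B and RAG1. They were taken by name, as B-lineage markers of that stage, and they are 9 of the 19775 genes that had a probe set on the array. Germinal centre B cells divide rapidly while they mutate and select their immunoglobulin genes. Burkitt lymphoma arises from such cells after a translocation places MYC, a transcription factor of growth and metabolism, under immunoglobulin gene control, and its cells keep the surface proteins of the stage, among them CD10 (MME), CD38 and CD20 (MS4A1). Precursor B cells also make several of the 9, among them MME, VPREB3, TCL1A and RAG1.

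The cells were Daudi, a B-cell line from a Burkitt lymphoma, and all 3 groups had been infected with a hairpin RNA and held in puromycin for 48 h. Ctrl-sh cells carried a control hairpin, Slc7a5-sh cells a hairpin against SLC7A5, the light chain of a carrier of large neutral amino acids, and C-Myc-sh cells a hairpin against MYC. Each group had 3 arrays of total RNA, 9 arrays in all, from 1 line at 1 time. The labels call the replicates biological but do not say whether each came from its own infection, so the p-values measure the spread among these samples.

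Values are log2 array signals, in which a difference of 1 is a factor of 2, scaled by the authors to 1 level per array. Array medians lay between 6.05 and 6.26. The targeted genes were checked first: SLC7A5 was 20% lower in Slc7a5-sh than in Ctrl-sh cells and MYC was 53.1% lower in C-Myc-sh cells. Each hairpin group was also lower for the other target. MYC was 21.3% lower in Slc7a5-sh cells (log2 change -0.35, adjusted p = 0.000381, limma). SLC7A5 was 24.6% lower in C-Myc-sh cells (log2 change -0.41, adjusted p = 0.000186, limma). Between the hairpin groups, C-Myc-sh minus Slc7a5-sh, SLC7A5 differed by -0.08 on the log2 scale (adjusted p = 0.351, limma). Of 8 genes that define B cells, 7 were measured and lay above the filter level of 5.77 on every array. Their summed linear signal was 35726 to 39274 in Ctrl-sh, 31743 to 32119 in Slc7a5-sh and 51350 to 54207 in C-Myc-sh cells. The 9 measured myeloid markers summed to 211 to 466 and none entered the tests. The 15 T and NK cell markers summed to 933 to 1051 in Ctrl-sh, 623 to 676 in Slc7a5-sh and 658 to 731 in C-Myc-sh cells. The 11 epithelial and fibroblast markers summed to between 761 and 1098 over the 9 arrays. Whether these shifts bear on the marker genes was not tested.

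The promoter sequences of 4 marker genes are shown because the results turn on these genes: CR2 moved in opposite directions in the 2 hairpin groups, and VPREB3, TCL1A and TCL1B were the genes furthest below Ctrl-sh in C-Myc-sh cells. Each is the stretch of 250 bases before the RefSeq start on the GRCh38.p14 assembly, read 5′ to 3′ on the gene's own strand. They lie at chr1:207454078-207454327 (plus strand, CR2), chr22:23754426-23754675 (minus, VPREB3), chr14:95714126-95714375 (minus, TCL1A) and chr14:95686176-95686425 (plus, TCL1B). TCL1A and TCL1B are neighbouring protein-coding genes on chromosome 14. Capitals mark matches, on either strand, to CACGTG (the E-box bound by MYC with MAX), CAGGTG (the E-box of E-proteins, CACCTG on the other strand) or ATTTGCAT (the octamer of B-cell promoters).
CR2: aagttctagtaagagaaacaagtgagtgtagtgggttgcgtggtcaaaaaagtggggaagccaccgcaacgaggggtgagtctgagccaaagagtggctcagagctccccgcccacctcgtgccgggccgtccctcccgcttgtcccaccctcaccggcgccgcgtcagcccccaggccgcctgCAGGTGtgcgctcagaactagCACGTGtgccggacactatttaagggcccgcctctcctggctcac
VPREB3: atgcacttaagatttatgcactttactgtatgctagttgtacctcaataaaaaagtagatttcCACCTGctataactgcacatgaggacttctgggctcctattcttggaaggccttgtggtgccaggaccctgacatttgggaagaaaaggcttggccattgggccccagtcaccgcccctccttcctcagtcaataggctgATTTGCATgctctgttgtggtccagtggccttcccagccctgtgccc
TCL1A: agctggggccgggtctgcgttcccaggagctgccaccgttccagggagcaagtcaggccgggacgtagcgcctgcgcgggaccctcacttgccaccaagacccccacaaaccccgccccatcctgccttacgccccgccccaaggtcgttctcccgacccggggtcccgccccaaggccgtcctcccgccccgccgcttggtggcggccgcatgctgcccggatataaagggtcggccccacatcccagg
TCL1B: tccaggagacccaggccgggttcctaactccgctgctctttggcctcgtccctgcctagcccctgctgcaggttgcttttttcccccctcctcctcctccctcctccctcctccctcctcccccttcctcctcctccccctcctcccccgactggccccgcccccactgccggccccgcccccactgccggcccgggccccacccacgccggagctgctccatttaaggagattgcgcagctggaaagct

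In the CR2 window CACGTG began 45 bases before the start and CAGGTG 66 bases before it. In the VPREB3 window the octamer began 47 bases before the start and CACCTG 187 bases before it, and a further CACCTG began 5 bases after the start, outside the stretch printed. The TCL1A window held none of the 3 motifs, and neither did the TCL1B window before the start, although a CACGTG began 1 base after the TCL1B start. Among 35116 RefSeq promoter windows of the same 250 bases, 6.34% held CACGTG, 17.5% CAGGTG and 1.63% the octamer. GTAAACA, a forkhead site held by 2.98% of windows, had no match in these 4 windows, and none of the matches overlapped another. The table held promoters of 8 of the 9 genes, without MS4A1. Such a match describes letters and not binding.

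The surface and B-lineage markers were mostly lower when either target was knocked down, with 1 gene, CR2, going up in C-Myc-sh cells. The 8 genes other than RAG1 lay above the filter level on every array. Of these 8, 7 were lower in Slc7a5-sh than in Ctrl-sh cells, none was higher and MME was not called, with a median change of -0.43 against 0.03 over all 11250 genes tested (limma, adjusted p under 0.05). Of all genes tested in that comparison, 25.3% were called, 14.3% as higher and 11.0% as lower. In C-Myc-sh against Ctrl-sh cells, 7 of the 8 were lower and 1, CR2, was higher, with a median change of -0.58 against 0.04 over all genes. There 54.9% of all genes were called, 28.7% as higher and 26.2% as lower, so that a call alone is common in this comparison. RAG1 passed the filter only through its Slc7a5-sh arrays, so it is given apart and without a test. Fewer cells with a transcript and less of it per cell cannot be told apart in bulk RNA.

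**Figure D1:**
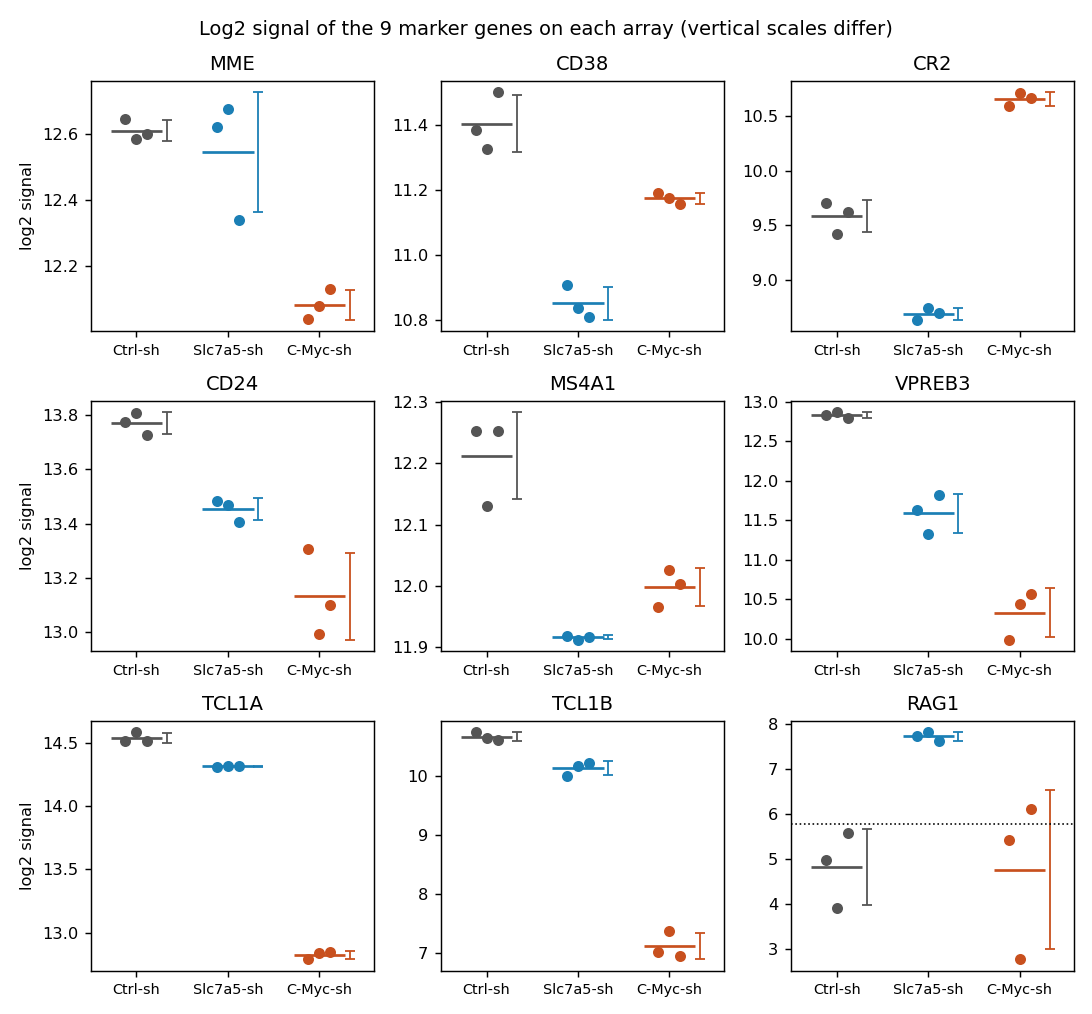
Log2 signal of each of the 9 marker genes (1 panel per gene, vertical scales differ) on the 3 arrays of each group. Points are arrays, horizontal lines are group means, bars are the mean with 1 SD to each side and the dotted line in the RAG1 panel is the filter level of 5.77. CR2 is lowest in Slc7a5-sh and highest in C-Myc-sh, and TCL1A, TCL1B and VPREB3 are lowest in C-Myc-sh.

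The arrays themselves separated in the same genes. RAG1 is left out of the counts here, since it passed the filter only through its Slc7a5-sh arrays. In Slc7a5-sh against Ctrl-sh, all 3 arrays lay below the controls for 7 of the other 8 genes (18.0% of all genes tested). They lay above the controls for none (21.8% of all genes). In C-Myc-sh against Ctrl-sh, the arrays lay below for 7 genes (29.1% of all genes) and above for CR2 (33.2%). Between the 2 hairpin groups, the C-Myc-sh arrays lay below for MME, CD24, VPREB3, TCL1A and TCL1B (27.7% of all genes). They lay above for 3 genes, CR2, CD38 and MS4A1 (28.8%). Both knockdown comparisons use the same 3 Ctrl-sh arrays, so their values are set side by side and their likeness is not measured.

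TCL1A and TCL1B were lower in both hairpin groups and fell further in C-Myc-sh cells. Both code for small proteins of the TCL1 family, of which TCL1A binds the kinase AKT and raises its activity. TCL1A read 14.52, 14.59 and 14.52 on the Ctrl-sh arrays, 14.31, 14.32 and 14.32 on the Slc7a5-sh arrays and 12.79, 12.84 and 12.85 on the C-Myc-sh arrays. No 2 of its groups overlapped, and the C-Myc-sh arrays stood far below both others. TCL1A was 3.29-fold lower in C-Myc-sh cells (log2 change -1.72, SE 0.05, adjusted p = 1.08e-12, limma) and 1.17-fold lower in Slc7a5-sh cells (log2 change -0.22, SE 0.05, adjusted p = 0.00258). Its second probe set gave -1.60 and -0.22, both called.

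TCL1B read 10.74, 10.65 and 10.60 on the Ctrl-sh arrays, 9.99, 10.17 and 10.23 on the Slc7a5-sh arrays and 7.02, 7.37 and 6.95 on the C-Myc-sh arrays. Its C-Myc-sh arrays were the lowest 3 of the 9, and they remained above the filter level. TCL1B, which has a single probe set, was lower by 3.55 (SE 0.13, 11.7-fold, adjusted p = 2.49e-11, limma) in C-Myc-sh and by 0.53 (SE 0.13, adjusted p = 0.00793) in Slc7a5-sh cells on the log2 scale. Against Slc7a5-sh, the C-Myc-sh cells held 8.10-fold less TCL1B and 2.82-fold less TCL1A signal (limma, adjusted p = 2.03e-10 and 7.70e-12).

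Partners of the family include the AKT kinases that TCL1A binds. Of 4 listed partners 3 were tested, and AKT1 was lower by 0.50 in Slc7a5-sh and by 0.44 in C-Myc-sh cells (limma, adjusted p = 0.00449 and 0.00362). AKT2 was lower by 0.26 in C-Myc-sh cells (adjusted p = 0.0433, limma), a call that ended when any 1 of the arrays compared but Ctrl-sh replicate 1 was left out (-0.28 to -0.18); its direction turned with the mean of its probe sets (0.33) and without probe sets that can bind related transcripts (0.13). MTCP1, a further family member, passed in neither comparison.

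VPREB3 fell in both hairpin groups and furthest in C-Myc-sh cells. It codes for a protein related to VpreB that associates with immunoglobulin chains in the endoplasmic reticulum of early B cells. The Ctrl-sh arrays read 12.84, 12.87 and 12.80, the Slc7a5-sh arrays 11.63, 11.33 and 11.82 and the C-Myc-sh arrays 9.99, 10.44 and 10.57. The 3 groups formed 3 separate steps, with a wider spread in the 2 hairpin groups (SD 0.25 and 0.30) than in Ctrl-sh (SD 0.036, n = 3 each). VPREB3 was 2.37-fold lower in Slc7a5-sh (log2 change -1.24, SE 0.13, adjusted p = 2.01e-05, limma) and 5.65-fold lower in C-Myc-sh cells (log2 change -2.50, SE 0.13, adjusted p = 8.82e-10). The direct difference between the hairpin groups was -1.26 (adjusted p = 1.78e-06, limma). It was the gene with the largest decrease in Slc7a5-sh cells among the 9.

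CR2 was the gene whose direction differed between the knockdowns. It codes for CD21, the receptor for complement fragment C3d and for Epstein-Barr virus. The Ctrl-sh arrays read 9.71, 9.42 and 9.62, the Slc7a5-sh arrays 8.63, 8.74 and 8.70 and the C-Myc-sh arrays 10.59, 10.71 and 10.67. The groups lay in 3 separate ranges with Ctrl-sh in the middle. CR2 was 1.86-fold lower in Slc7a5-sh (log2 change -0.89, SE 0.10, adjusted p = 3.99e-05, limma) and 2.11-fold higher in C-Myc-sh cells (log2 change 1.08, SE 0.10, adjusted p = 5.22e-07). The test of the difference between the hairpin groups gave 3.92-fold more CR2 in C-Myc-sh than in Slc7a5-sh cells (log2 difference 1.97, adjusted p = 1.52e-09, limma). A second CR2 probe set lay below the filter level, with overlapping groups, and averaging it in ended both calls against Ctrl-sh (-0.39 with adjusted p = 0.545 and 0.83 with adjusted p = 0.101).

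**Figure D2:**
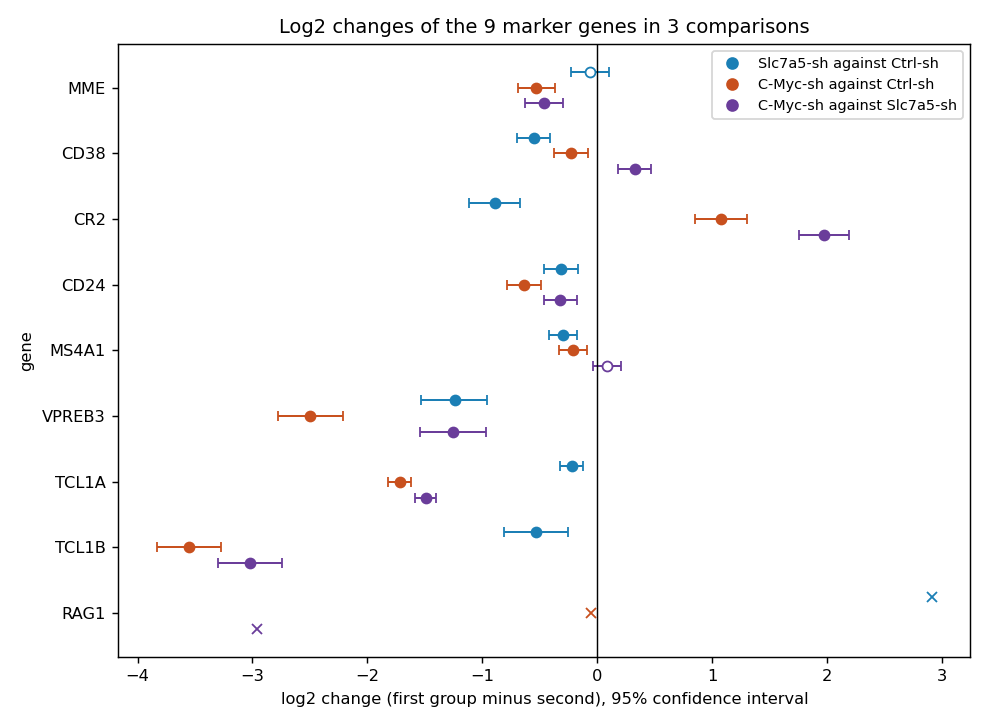
Log2 change of each of the 9 marker genes (vertical axis) in Slc7a5-sh against Ctrl-sh, C-Myc-sh against Ctrl-sh and C-Myc-sh against Slc7a5-sh. Points are limma estimates, bars are 95% confidence intervals and open points were not called at an adjusted p under 0.05; crosses are the differences of RAG1, shown without an interval or a call. The CR2 intervals against Ctrl-sh lie on opposite sides of 0.

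Complement regulators and membrane partners of CR2 were read from a list of 7 genes, 5 of them tested. In Slc7a5-sh cells CD59, an inhibitor of the membrane attack complex, was higher by 0.49 and CD81 lower by 0.15 (limma, adjusted p = 0.00215 and 0.0398). The CD81 call ended when any 1 of the arrays but Slc7a5-sh replicate 3 was left out (-0.16 to -0.13), and the CD59 call ended with the mean of its probe sets (0.38) and turned to -0.02 without probe sets that can bind related transcripts. In C-Myc-sh cells IFITM1 was higher by 3.52, CD59 by 1.08 and CD46, a complement regulator, by 0.93 (limma, adjusted p = 1.12e-05, 2.81e-07 and 7.86e-09), while CD81 was lower by 0.59 (adjusted p = 1.45e-07). In C-Myc-sh cells, CR2 was higher together with CD59 while CD81 was lower. CR1, the neighbouring gene of the same family on chromosome 1, lay below the filter level.

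CD38 and MME are both ectoenzymes of the surface, with their active sites outside the cell. CD38, which hydrolyses NAD, read 11.39, 11.33 and 11.50 in Ctrl-sh, 10.91, 10.84 and 10.81 in Slc7a5-sh and 11.19, 11.18 and 11.16 in C-Myc-sh cells. Slc7a5-sh gave the lowest arrays here, whereas for TCL1A, TCL1B, VPREB3, CD24 and MME it was C-Myc-sh. CD38 was lower by 0.55 (SE 0.07, adjusted p = 5.46e-05, limma) in Slc7a5-sh and by 0.23 (SE 0.07, adjusted p = 0.00985) in C-Myc-sh cells on the log2 scale. The second call ended without Ctrl-sh replicate 3, the highest control array (-0.18, adjusted p = 0.0571, limma; over the 6 arrays left out in turn, adjusted p = 0.00921 to 0.0571). CD38 was higher in C-Myc-sh than in Slc7a5-sh cells by 0.32 (adjusted p = 0.00102, limma).

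MME, which codes for the peptidase CD10, read 12.65, 12.59 and 12.60 in Ctrl-sh, 12.62, 12.68 and 12.34 in Slc7a5-sh and 12.04, 12.08 and 12.13 in C-Myc-sh cells. The Slc7a5-sh arrays overlapped the controls and 1 of them lay well below the other 2, while the C-Myc-sh arrays were the lowest 3. MME was lower by 0.53 (SE 0.08, adjusted p = 2.75e-05, limma) in C-Myc-sh cells. In Slc7a5-sh cells its change was -0.07 with a 95% interval of -0.23 to 0.10 (adjusted p = 0.581, limma). The second MME probe set differed: it was called lower in Slc7a5-sh cells too (-0.38, adjusted p = 0.00323 over 27307 probe sets, limma), and reached -0.95 in C-Myc-sh cells. Of 10 other ectoenzymes, 4 lay above the filter level. None of the 4 was called in Slc7a5-sh cells, beside 25.3% of all genes tested. In C-Myc-sh cells ECE1, an endopeptidase, was the one called (1.81, adjusted p = 2.28e-05, limma), beside 54.9% of all genes tested. BST1, the neighbour and relative of CD38, lay below the filter level.

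CD24 and MS4A1 showed smaller decreases. CD24, a heavily glycosylated protein held in the membrane by a lipid anchor, read 13.77, 13.81 and 13.73 in Ctrl-sh, 13.49, 13.47 and 13.41 in Slc7a5-sh and 13.31, 12.99 and 13.10 in C-Myc-sh cells. The 3 groups descended in that order with no overlap. CD24 was 19.6% lower in Slc7a5-sh (log2 change -0.32, SE 0.07, adjusted p = 0.00366, limma) and 35.7% lower in C-Myc-sh cells (log2 change -0.64, SE 0.07, adjusted p = 1.50e-06). The difference between the hairpin groups, -0.32 (adjusted p = 0.00118, limma), shrank to -0.16 after quantile normalization (adjusted p = 0.0951). All 6 CD24 probe sets were called lower in both groups, at -0.55 to -0.24 in Slc7a5-sh and -1.12 to -0.64 in C-Myc-sh cells, although 1 of the 6 had overlapping arrays in Slc7a5-sh.

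MS4A1, which codes for CD20, the target of rituximab, read 12.25, 12.13 and 12.25 in Ctrl-sh, 11.92, 11.91 and 11.92 in Slc7a5-sh and 11.97, 12.03 and 12 in C-Myc-sh cells. Both hairpin groups lay just below the controls and close to each other. MS4A1 was lower by 0.30 (SE 0.06, adjusted p = 0.00149, limma) in Slc7a5-sh and by 0.21 (SE 0.06, adjusted p = 0.00467) in C-Myc-sh cells on the log2 scale. After quantile normalization the C-Myc-sh change was -0.11 (adjusted p = 0.107, limma), no longer a call. The difference between C-Myc-sh and Slc7a5-sh was 0.08 with a 95% interval of -0.04 to 0.20 (adjusted p = 0.249, limma), and quantile normalization made it 0.16 (adjusted p = 0.0211). Of the 4 MS4A1 probe sets, 3 were called lower in both groups and 1 in neither.

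RAG1, a subunit of the recombinase that cuts DNA at immunoglobulin and T-cell receptor segments, gave the least certain reading. The main RAG1 probe set read 4.98, 3.91 and 5.58 in Ctrl-sh, 7.74, 7.82 and 7.63 in Slc7a5-sh and 5.42, 2.76 and 6.11 in C-Myc-sh cells. No Ctrl-sh array and 1 of the C-Myc-sh arrays lay above the filter level, while the Slc7a5-sh arrays all did and lay close together. The mean over the 9 arrays, 5.772, reached the filter level of 5.771 only because of the Slc7a5-sh arrays, so no test is given. The Slc7a5-sh mean was above the Ctrl-sh mean by 2.91 on the log2 scale, or by 1.96 with lower values raised to the filter level. The C-Myc-sh and Ctrl-sh arrays overlapped, with means that differed by -0.06. Between C-Myc-sh and Slc7a5-sh the means differed by -2.96, or by -1.96 without C-Myc-sh replicate 2. Signals this near background carry a wide spread, as the SDs of 0.84 in Ctrl-sh and 1.80 in C-Myc-sh show (n = 3 each).

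The second RAG1 probe set went against the first. It read 6.82, 6.42 and 6.64 in Ctrl-sh, 6.44, 6.11 and 4.62 in Slc7a5-sh and 5.22, 1.71 and 5.35 in C-Myc-sh cells. Its mean over the 9 arrays lay below the filter level, so it was not tested. Its group means differed from Ctrl-sh by -0.90 in Slc7a5-sh, with overlapping arrays, and by -2.53 in C-Myc-sh, without overlap. No direction for the RAG1 transcript as a whole can be read from the 2 probe sets.

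**Figure D3:**
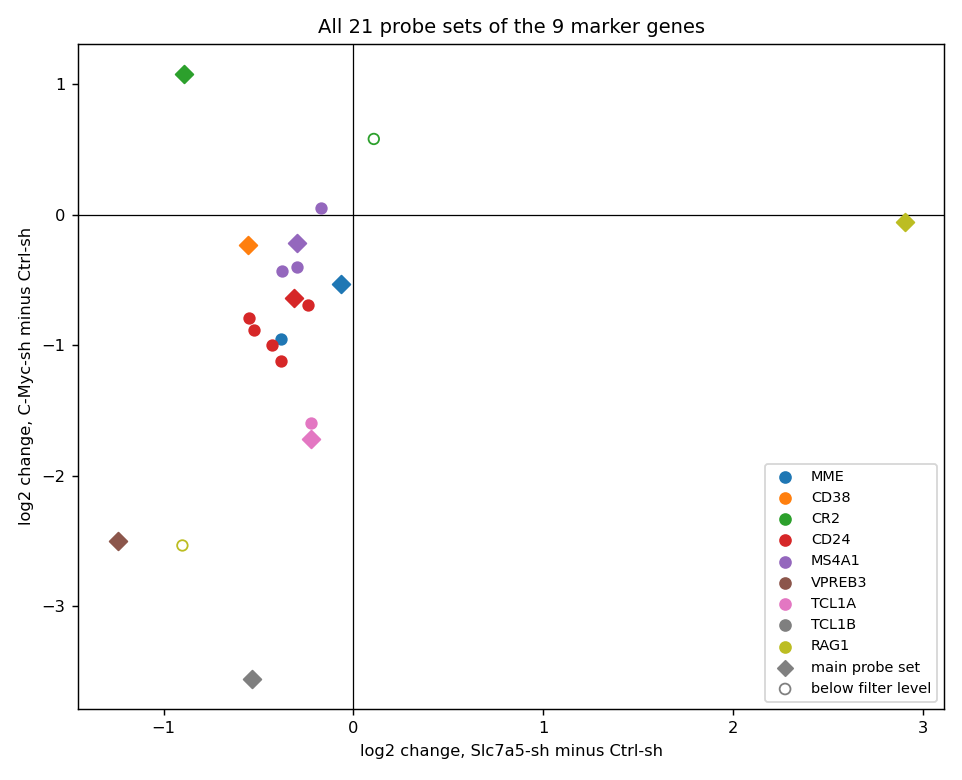
Log2 change in Slc7a5-sh minus Ctrl-sh (horizontal) and in C-Myc-sh minus Ctrl-sh (vertical) for the 21 probe sets of the 9 marker genes. Diamonds are the main probe sets, filled circles other probe sets and open circles those below the filter level; both axes share the Ctrl-sh arrays. The 6 CD24 probe sets and the 2 TCL1A probe sets lie together, and the 2 RAG1 probe sets lie far apart, at 2.91 and -0.90 on the horizontal axis.

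The 21 probe sets of the 9 genes allow a further reading, in which 19 reached the filter level, 18 of them not of RAG1, and each was tested by itself among 27307. In Slc7a5-sh cells 16 of the 18 were lower, none was higher and 2 were not called, beside 18.4% of all probe sets called in either direction (limma). In C-Myc-sh cells 16 were lower, 1 was higher and 1 was not called, beside 45.9% of all. Probe sets of 1 gene measure the same transcripts and are not replicates.

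Between the hairpin groups, C-Myc-sh against Slc7a5-sh, 5 of the 8 genes other than RAG1 were lower in C-Myc-sh cells and 2 were higher, with MS4A1 not called. Among all genes tested 49.5% were called here, 24.4% as higher and 25.1% as lower. The lower 5 were MME, CD24, VPREB3, TCL1A and TCL1B, and the higher 2 were CR2 and CD38. MME differed by -0.46 (adjusted p = 0.000122, limma), close to its change against Ctrl-sh. The 8 genes differed in the group that was lowest. C-Myc-sh was lowest for MME, CD24, VPREB3, TCL1A and TCL1B; Slc7a5-sh was lowest for CD38 and CR2; and MS4A1 was at levels in the 2 hairpin groups that did not differ beyond the threshold.

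For each of the 9 genes, the 3 tested genes with the most similar profile over the 9 arrays were looked up by Pearson correlation. These values describe 9 arrays that share groups, and much of each correlation is the distance between the 3 group means. For TCL1A the nearest were MGST1, NPM3 and MZB1 (r = 0.999, 0.998 and 0.998), and for TCL1B HPRT1, NOLC1 and MRPL12 (0.999, 0.999 and 0.998). The profile of VPREB3 was nearest to MSANTD3, MRPL57 and DNPH1 (0.995, 0.993 and 0.991). For CR2 the nearest were SWAP70, RAB21 and HLA-DRA, each at 0.995. HLA-DRA, a class II histocompatibility chain, was lower by 0.98 in Slc7a5-sh and higher by 1.00 in C-Myc-sh cells on the log2 scale, sizes near those of CR2. MS4A1 was nearest to EAF2, NDUFS7 and IGHD (0.983, 0.974 and 0.97), and CD38 to XPNPEP1, ABHD17B and PRKACA (0.979, 0.975 and 0.971). CD24 was nearest to RBM28, DPAGT1 and CMTM8 (0.992, 0.987 and 0.986), and MME to BAG2, CDK2AP1 and NKAPD1 (0.990, 0.988 and 0.982). RAG1 had no neighbour above 0.945, the value of GANAB.

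Genes that share a stage or a function with the 9 were read from lists, of which the nearest holds 24 other germinal centre genes, 21 of them tested. In Slc7a5-sh cells 10 of the 21 were lower and 2 higher, beside 11.0% and 14.3% of all genes, with a median change of -0.24. The decreases with the smallest p were those of CCND3 (-0.86), RGS13 (-1.0), ELL3 (-0.74) and P2RY8 (-0.60; limma, adjusted p = 9.08e-07, 6.83e-06, 4.82e-05 and 0.00039). CCND3 is cyclin D3, which Burkitt tumours often mutate, and P2RY8 is a receptor that holds B cells in the germinal centre. The higher 2 were MEF2C (0.17) and LMO2 (1.87), with adjusted p = 0.0427 and 0.0207 (limma). LMO2 lay below the filter level on average in Ctrl-sh cells and passed it only through the hairpin groups, so its call carries that limit. The MEF2C call ended when any 1 of the arrays but Slc7a5-sh replicate 2 was left out (0.16 to 0.18) and turned to -0.12 without probe sets that can bind related transcripts. The LMO2 call ended without Slc7a5-sh replicate 1 (1.73). It also ended with eBayes without its trend option and with only the 6 arrays compared (limma, adjusted p = 0.0599 and 0.0511). With 1 array left out at a time, 8 to 9 germinal centre genes were lower, and 1 was higher except without Slc7a5-sh replicate 1 (0) and without Slc7a5-sh replicate 2 (3).

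In C-Myc-sh cells 14 of the 21 germinal centre genes were lower and 4 higher, beside 26.2% and 28.7% of all genes. Their median change was -0.60. CCND3 (-1.70) and RGS13 (-2.51) were again among the lower, with ID3 (-1.85), an inhibitor of E-proteins, and MYBL1 (-1.70; limma, adjusted p = 2.73e-11, 2.73e-11, 5.00e-11 and 5.95e-11). The mean over the MYBL1 probe sets gave 0.07 instead. SERPINA9 (1.72), GCSAM (0.56), MEF2C (0.53) and LMO2 (2.22) were higher (limma, adjusted p = 4.80e-09, 1.38e-05, 1.45e-06 and 0.00295). LMO2 passed the filter only through the hairpin groups, with a Ctrl-sh mean of 5.14, so its call carries that limit. CR2 was also higher in C-Myc-sh cells. In Slc7a5-sh cells, where CR2 was lower, GCSAM was lower (-0.30), SERPINA9 was not called (0.13) and MEF2C and LMO2 were higher.

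**Figure D4:**
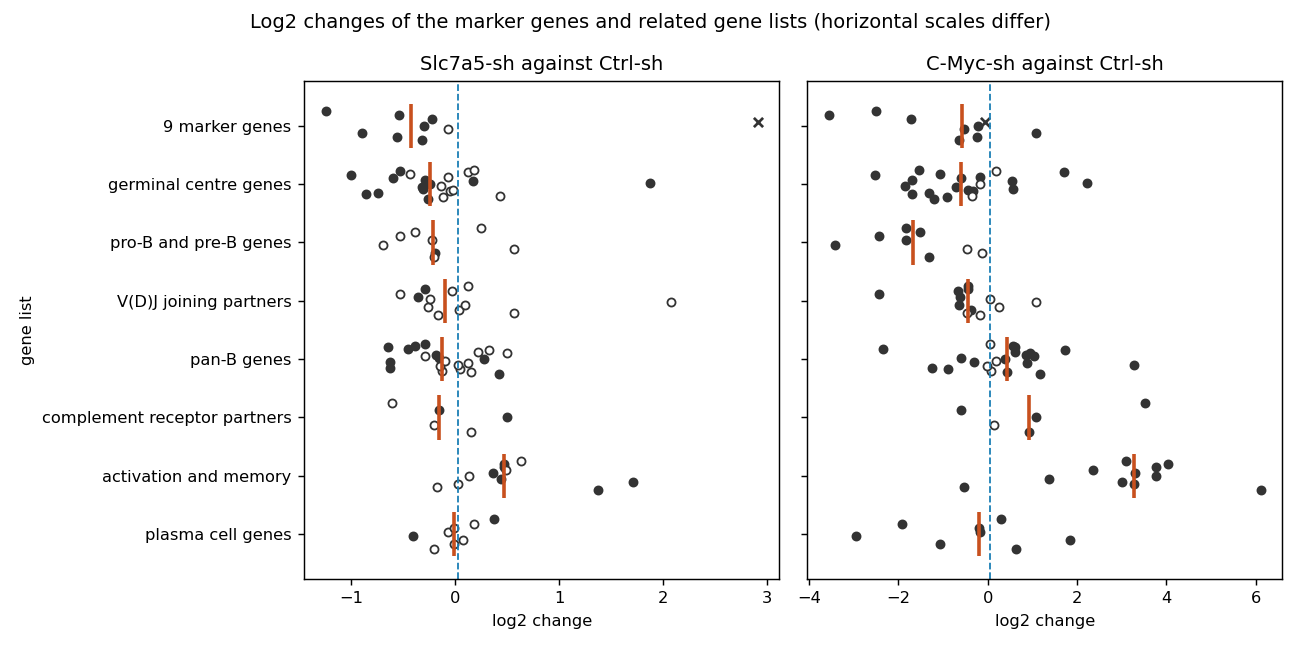
Log2 change in Slc7a5-sh against Ctrl-sh (left) and C-Myc-sh against Ctrl-sh (right) for the 9 marker genes and 7 lists of related genes, 1 point per tested gene. Filled points were called at an adjusted p under 0.05 (limma), orange bars are list medians and the dashed line is the median of all tested genes; the crosses are RAG1, which is left out of the median, and horizontal scales differ. In the C-Myc-sh panel the pro-B and pre-B genes have a median of -1.67 and the activation and memory markers one of 3.29.

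RAG1 and VPREB3 belong with genes of precursor B cells, of which 8 of 11 listed were tested. In Slc7a5-sh cells 1 was called, CD9 (-0.19, adjusted p = 0.0256, limma), a call that ended when any 1 of the arrays but Slc7a5-sh replicate 3 was left out (-0.20 to -0.17) and that turned to 0.11 with the mean of its probe sets. In C-Myc-sh cells 6 were lower and none higher, beside 26.2% and 28.7% of all genes, with a median of -1.67. These included IL7R (-3.42), LEF1 (-1.83), RAG2 (-2.43), SOX4 (-1.50) and VPREB1 (-1.83), the last a part of the surrogate light chain (limma, adjusted p = 2.43e-07, 3.43e-10, 2.15e-05, 2.13e-06 and 9.70e-05). With the mean of its probe sets SOX4 was at -0.91 and no longer called (adjusted p = 0.168, limma). RAG2 passed the filter through its Ctrl-sh and Slc7a5-sh arrays, with a C-Myc-sh mean of 5.54, below the filter level. IL7R (5.95), VPREB1 (6.17) and ARPP21 (5.83) had C-Myc-sh means near that level, so the sizes of these decreases carry that limit. With lower values raised to the filter level, 6 were again lower and none higher (median -1.67). VPREB1 was 0.25 higher on average in Slc7a5-sh cells with overlapping arrays (adjusted p = 0.599, limma), where VPREB3 was lower.

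RAG2, which neighbours RAG1 on chromosome 11 and codes for its partner, read 7.81, 7.95 and 8.16 in Ctrl-sh, 7.53, 7.37 and 7.43 in Slc7a5-sh and 4.93, 6.18 and 5.51 in C-Myc-sh cells. Its Slc7a5-sh arrays all lay below the controls by a small distance (-0.53, adjusted p = 0.283, limma), unlike the main RAG1 probe set. Of the 12 tested genes of V(D)J joining, 2 were lower in Slc7a5-sh cells and none was higher, beside 11.0% and 14.3% of all genes. The 2 were PRKDC (-0.36) and XRCC5 (-0.29), with adjusted p = 0.00521 and 0.00275 (limma). The PRKDC call ended with the mean of its probe sets (-0.003, adjusted p = 0.995) and the XRCC5 call without probe sets that can bind related transcripts (-0.37, adjusted p = 0.225, limma). In C-Myc-sh cells 7 were lower and none higher, beside 26.2% and 28.7% of all genes. The 7 included RAG2, which was also counted among the precursor B-cell genes and whose C-Myc-sh mean lay below the filter level. They also included PRKDC (-0.63), XRCC5 (-0.45) and HMGB1 (-0.36), with adjusted p = 1.13e-05, 1.48e-05 and 1.58e-05 (limma). There too, PRKDC lost its call with the mean of its probe sets (-0.37, adjusted p = 0.218, limma), and XRCC5 was at 0.08 without probe sets that can bind related transcripts.

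Other genes of the B-cell surface, its receptors and its transcription factors were more often called higher than lower in C-Myc-sh cells. Of 21 tested pan-B genes, 8 were lower and 2 higher in Slc7a5-sh cells (median -0.13), beside 11.0% and 14.3% of all genes. In C-Myc-sh cells 5 were lower and 12 higher (median 0.44), beside 26.2% and 28.7% of all genes. PAX5, the factor that keeps B-cell identity, was lower by 0.64 in Slc7a5-sh and higher by 0.62 in C-Myc-sh cells (limma, adjusted p = 0.000313 and 7.68e-05), directions shared with CR2. In Slc7a5-sh cells CD72 (-0.63) and SPIB (-0.39) were lower, while CD79B (0.28) and BANK1 (0.42) were higher (limma, adjusted p = 0.00173, 0.0022, 0.00196 and 0.0399). With the mean of their probe sets SPIB was at -0.13 (adjusted p = 0.508, limma) and CD79B at 0.55 (adjusted p = 0.409), neither a call. The BANK1 call ended without Ctrl-sh replicate 1, Slc7a5-sh replicate 1 or Slc7a5-sh replicate 2 (0.26, 0.37 and 0.34), and the lower genes numbered 5 without Ctrl-sh replicate 2 or Slc7a5-sh replicate 1. In C-Myc-sh cells CD40 (3.29), CD53 (0.87) and EBF1 (0.85) were higher (limma, adjusted p = 5.30e-13, 6.24e-09 and 3.32e-08). The lower 5 were FCRLA (-2.35), CD22 (-1.25), BTK (-0.89), CD81 (-0.59) and CD72 (-0.30), the last with a call that ended when any 1 of the arrays but Ctrl-sh replicate 3 was left out (-0.35 to -0.19).

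Among all genes tested, 14.3% were called higher and 11.0% lower in Slc7a5-sh cells, and 28.7% and 26.2% in C-Myc-sh cells. Beside these shares, markers of activated and memory B cells were read from a list of 15 genes. Of 11 tested, 6 were higher and none lower in Slc7a5-sh cells (median 0.47), led by CD69 (1.71), BCL2A1 (1.38), CD83 (0.36) and CD70 (0.44; limma, adjusted p = 6.55e-06, 3.00e-04, 0.000628 and 0.00434). In C-Myc-sh cells 10 were higher (median 3.29), with BCL2A1 at 6.11, ICAM1 at 4.04, CD83 at 3.30 and CD40 at 3.29 (limma, adjusted p = 1.18e-11, 1.03e-12, 3.74e-14 and 5.30e-13), and 1 was lower, CD27 (-0.53, adjusted p = 1.99e-05). SLAMF7, 1 of the 10, had means below the filter level in Ctrl-sh (4.95) and Slc7a5-sh cells (5.58). It passed the filter only through its C-Myc-sh arrays, so its call and its part in the count carry that limit. Plasma cell genes did not move one way: of 8 tested, XBP1 was higher (0.38) and MZB1 lower (-0.40) in Slc7a5-sh cells (limma, adjusted p = 0.00383 and 0.00215). In C-Myc-sh cells 3 plasma cell genes were higher, IRF4 (1.84), ELL2 (0.63) and XBP1 (0.30), and 5 were lower, MZB1 (-2.95), TNFRSF17 (-1.91), FKBP11 (-1.06), SSR4 (-0.19) and POU2AF1 (-0.17; limma, adjusted p between 1.25e-12 and 0.0145). The calls of SSR4 and POU2AF1 ended without Ctrl-sh replicate 2 (both -0.16) and with eBayes without its trend option. They also ended after quantile normalization (-0.03 and 0.04), which left 3 plasma cell genes higher and 3 lower (median 0.005). With the mean of probe sets the calls of XBP1 in Slc7a5-sh (0.63) and of ELL2 (0.50) and XBP1 (-0.05) in C-Myc-sh cells ended.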

How the data were processed

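Total RNA of 9 Daudi samples was amplified from the 3′ end, labelled with biotin and hybridised to short-oligonucleotide arrays, per the labels' protocols. The authors deposited log2 signals for 54613 probe sets, made with MAS5 per the submitters' processing notes, which give no version. After conversion to linear scale the mean trimmed by 2% at each end was 497 on every array, so a scaled signal shows no change in total RNA per cell. MAS5 signals near background spread widely on a log scale.

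The platform annotation gave 41091 probe sets 1 symbol, 1801 several and 11721 none; 41037 were matched to RefSeq by Entrez ID. For each gene the probe set with the highest mean was kept (19775 genes) and tested where that mean reached the median of all probe sets, 5.77 (11250 genes). Those named _s_at or _x_at can bind related transcripts. R 4.3.3 and limma 3.58.1 were used: 1 fit of 3 group means over the 9 arrays, eBayes with its trend option (residual df 6, prior df 8.21), two-sided, Benjamini-Hochberg over the 11250 genes of a comparison, called at an adjusted p under 0.05. The code was tested on simulated data. Groups and replicate numbers came from the sample titles.

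The genes and lists were chosen with earlier results of these data known. Named were the 9 genes, SLC7A5, MYC, up to 4 genes per list with the smallest p in each knockdown, and 3 genes of the most similar profile per gene; BANK1, VPREB1, RAG2 in Slc7a5-sh and members of counts of 5 or fewer outside that rule were named after their values were seen. Motifs were matched by their letters. Alternatives changed the normalization, the filter, the probe sets, the model and the arrays included; testing each probe set by itself and the counts without RAG1 were added after the data were seen. Same-numbered arrays did not deviate together (9 correlations of -0.02 to 0.02, 0 of them over 0.1), and no pair of arrays was identical.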

Additional observations from a re-analysis of the deposited data

How the results depend on the processing

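Of 369 values of the 8 genes other than RAG1 under the alternatives, 362 kept their side of the threshold, 5 lost their call and 2 gained one. No called value changed sign; 1 value that was not called did, MME in Slc7a5-sh without Slc7a5-sh replicate 3 (0.039). The lost calls were CD38 in C-Myc-sh without Ctrl-sh replicate 3, CR2 in both groups with the mean of its probe sets, and, after quantile normalization, MS4A1 in C-Myc-sh and CD24 between the hairpin groups. The gains were MME in Slc7a5-sh with the mean of its probe sets (-0.22, adjusted p = 0.0428, limma) and MS4A1 between the hairpin groups after quantile normalization. With the mean of all probe sets 1581 genes were called in Slc7a5-sh against 2843. Without _s_at and _x_at probe sets 4 of the 9 genes could be tested, since 5 genes have no other tested probe set. The 4 were MS4A1, VPREB3, TCL1A and RAG1. MS4A1, VPREB3 and TCL1A stayed called lower in both hairpin groups, and VPREB3 and TCL1A between them. RAG1 passed the filter only through its Slc7a5-sh arrays, so it is not counted. With the replicate number as a replicate block, 2775, 6147 and 5526 genes were called, against 2843, 6178 and 5569 without it. No call of the 8 genes other than RAG1 changed there. The arrays share only a number.

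Reversed values of genes outside the 9 were, with the mean of probe sets, CD9 in Slc7a5-sh (0.11) and MYBL1 (0.075), AKT2 (0.33) and XBP1 (-0.053) in C-Myc-sh. Without _s_at and _x_at probe sets they were MEF2C (-0.12) and CD59 (-0.023) in Slc7a5-sh and XRCC5 (0.085) and AKT2 (0.13) in C-Myc-sh. After quantile normalization POU2AF1 in C-Myc-sh was at 0.042. Where no cause is given, the cause was not tested. The number of arrays, 3 per group, and low signal limit RAG1 most: its mean difference in C-Myc-sh changed sign, from -0.73 to 0.95, with 1 array left out.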

Other observations

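The surrogate light chain, to which VPREB3 is related, has 2 parts, VPREB1 and IGLL1. IGLL1 lay below the filter level on average and was not tested. It read 8.0, 7.62 and 8.13 in the controls, 6.53, 4.82 and 3.50 with Slc7a5-sh and 2.45, 5.09 and 2.39 with C-Myc-sh, so that every array of either hairpin group lay below every control array. VPREB1 read 7.84, 7.94 and 8.24 in the controls, 8.82, 7.62 and 8.31 with Slc7a5-sh and 6.06, 6.09 and 6.38 with C-Myc-sh, overlapping the controls in Slc7a5-sh and below them in C-Myc-sh. CCR7, an activation marker that also lay below the filter level on average, had a group mean of 1.35 in Ctrl-sh cells, one of 3.42 in Slc7a5-sh cells and one of 11.35 in C-Myc-sh cells. IGLL1 and CCR7 were picked after their values were seen.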
